A study of Homo sapiens with 18 samples.

Results

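The nuclear and mitochondrial genes of the respiratory chain were followed in HCT116 cells, a human colorectal carcinoma line, as the cultures grew from 50% to 250% confluency. Members were chosen by gene symbol. They were the structural subunits of complex I (NDUFA, NDUFB, NDUFC, NDUFS, NDUFV), complex III (UQCR), complex IV (COX4 to COX8) and ATP synthase, here complex V (ATP5), encoded in the nucleus, and the protein-coding genes of mitochondrial DNA (MT-ND, MT-CYB, MT-CO, MT-ATP). Of 38055 genes in the table, 94 were members, 81 nuclear and 13 mitochondrial. A further 55 symbols began with the nuclear prefixes but were left out, 38 of them pseudogenes and 17 of them assembly factors, the ATP synthase inhibitor ATP5IF1, and readthrough, divergent or antisense transcripts.

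The oxidative phosphorylation system moves electrons from NADH and succinate to oxygen and stores the energy as a proton gradient, which ATP synthase spends to make ATP. Its complexes are built from 2 genomes. Mitochondrial DNA encodes a small set of core subunits and is read as long transcripts that are cut at the tRNAs between the genes, whereas each nuclear subunit has a promoter, an mRNA and an import step of its own. Complex II is wholly nuclear. Transcription of the subunit genes is known to respond to growth state and oxygen supply.

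Total RNA came from wild-type HCT116 cells, grown in McCoy's medium with serum and with no added treatment. It had been depleted of ribosomal RNA and sequenced with strand kept and with molecular identifiers in the adapters. The groups were day 3 after seeding (50% confluency) and day 5 (250% confluency), with 3 libraries each, labelled as biological replicates. Density and days in culture changed together, so they cannot be told apart here. The labels say nothing more on how the cultures were separated, so p-values measure the spread between these libraries. Day 7 was not analysed here.

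Reads on genes numbered 38734844, 56689369 and 27470978 for the day 3 libraries and from 31403756 to 33661896 for the day 5 libraries. Day 3 replicate 3 was the shallowest library, and its nuclear members stood above those of the other day 3 libraries. The median log2 deviation of a nuclear member from its mean over all libraries was 0.73 in replicate 3, against 0.41 and 0.38 in replicates 1 and 2. Of 10 colorectal epithelial markers, 7 reached a value of 10 in some library, and 5 were higher on day 5, with a summed value of 37140 to 55227 on day 3 and 100357 to 101454 on day 5. Of 10 markers of leukocytes, endothelium, fibroblasts, liver and muscle found in the table, 6 stayed below 10 in every library, and the summed value was 45.4 to 58.8 on day 3 and 46.1 to 52.8 on day 5. The 5 epithelial markers that were higher were KRT8, KRT18, KRT19, CDH1 and CDX2. EPCAM and KRT20 were not called (log2 fold changes 0.002 and -0.67, limma adjusted p = 0.982 and 0.0613). The part of these marker changes in the results was not tested. In RNA from whole cultures, fewer cells of a type and less RNA per cell cannot be told apart.

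Most nuclear subunit mRNAs fell between day 3 and day 5. Of the 81 nuclear members, 78 passed the filter on low values, a normalised value of 10 or more in 3 or more of the 6 libraries. Of these, 63 were lower on day 5, 5 were higher and 10 were not called, by limma on log2(value + 1) with Benjamini-Hochberg adjustment over all 20129 genes tested at a threshold of 0.05. Over all genes tested, 56.9% were called, 29.3% as higher and 27.6% as lower, whereas 80.8% of the nuclear members tested were lower and 6.41% higher. The median log2 fold change was -1.01 over nuclear members, from -1.56 to 0.63, and 0.01 over all genes tested. A fall of at least 2-fold was called for 39 nuclear members. The libraries of both days did not overlap for 72 of the 78, against 65.0% of all genes.

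The mitochondrial mRNAs did not all move in one direction. All 13 passed the filter. On day 5, 7 were lower, 1 was higher (MT-ND5) and 5 were not called, with a median log2 fold change of -0.47, from -1.23 for MT-ND3 to 0.35 for MT-ND5. On the recovered reads edgeR called 10 lower and DESeq2 9. The days did not overlap for 9 of the 13, and this share and the share called (61.5%) were near those over all genes, 65.0% and 56.9%.

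**Figure D1:**
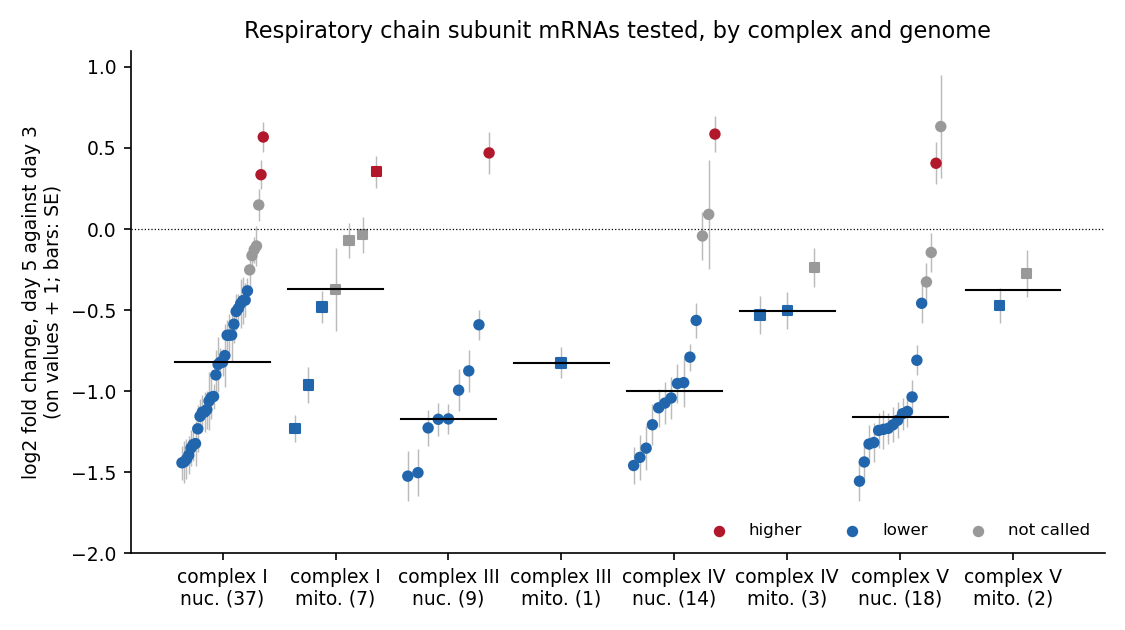
Log2 fold change of day 5 against day 3 (values + 1) for each member tested, by complex and by genome, with the number of genes in brackets. Points are genes, coloured by call (limma, adjusted p under 0.05), vertical bars are standard errors and horizontal lines are group medians, which lie between -0.82 and -1.17 for the nuclear sets and between -0.37 and -0.82 for the mitochondrial sets.

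The fall in nuclear mRNAs was also seen in the share of all gene reads. Nuclear members took 1.01%, 0.958% and 1.08% of gene reads in the day 3 libraries and 0.594%, 0.592% and 0.602% in the day 5 libraries. The days did not overlap, and the day 5 libraries lay close together. The mean went from 1.01% ± 0.060 (SD, n = 3) to 0.596% ± 0.005 (SD, n = 3), a ratio of 0.588.

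Mitochondrial mRNAs took 6.59%, 6.84% and 7.09% of gene reads on day 3 and 5.36%, 6.01% and 5.68% on day 5. Again the days did not overlap, but the ratio of the means, 6.84% ± 0.246 and 5.68% ± 0.327 (SD, n = 3 each), was 0.831. Mitochondrial reads per nuclear member read were 6.56, 7.14 and 6.57 on day 3 and 9.02, 10.2 and 9.44 on day 5. Every day 5 library therefore held more mitochondrial mRNA per nuclear subunit mRNA than any day 3 library, with means of 6.76 ± 0.330 and 9.54 ± 0.579 (SD, n = 3 each) and a ratio of 1.41. These sums over members were described and not tested.

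**Figure D2:**
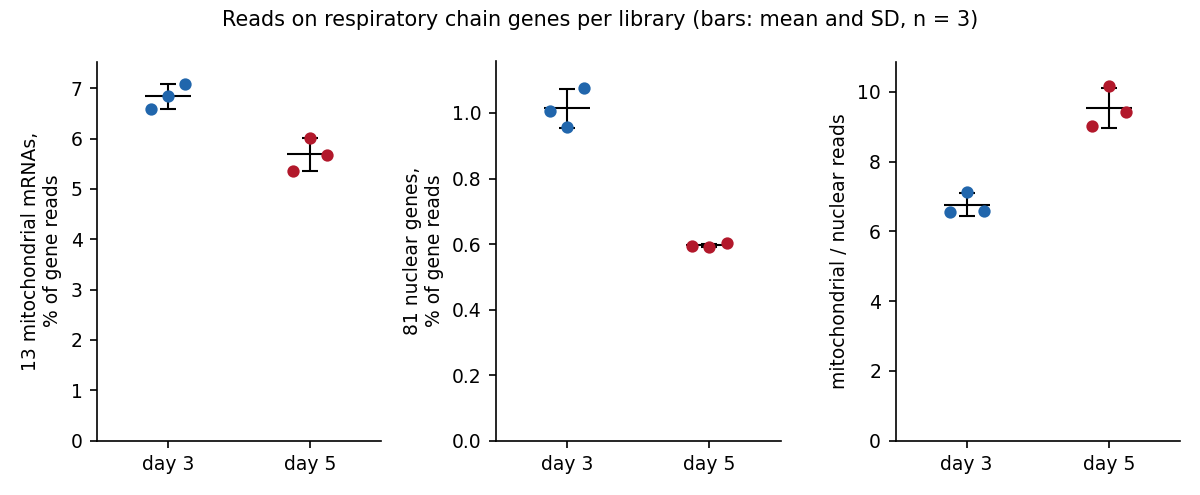
Share of all gene reads on the 13 mitochondrial mRNAs (left) and on the 81 nuclear genes (middle), in percent, and mitochondrial reads per nuclear read (right), for each library. Points are libraries and bars give mean and SD (n = 3 per day), and in each panel the days do not overlap, with the ratio rising from a mean of 6.76 to 9.54.

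The balance between the genomes, as shares of gene reads, differed by complex. For complex III the nuclear and mitochondrial shares of gene reads moved alike, with day 5 to day 3 ratios of 0.585 and 0.592. MT-CYB is the only mitochondrial member of this complex, and none of these shares was corrected for GC content or transcript length. For complex IV the nuclear share fell to 0.530 of its day 3 mean and the mitochondrial share to 0.799, and for complex V the ratios were 0.612 and 0.762. For complex I the nuclear ratio was 0.601 and the mitochondrial ratio 0.931. The mitochondrial complex I share was 2.40%, 2.58% and 2.49% on day 3 and 2.18%, 2.47% and 2.31% on day 5. It is the one of these 8 shares in which the days overlapped. These shares are sums of reads, in which abundant mRNAs weigh most. In mitochondrial complex I, MT-ND4 had a mean normalised value of 410398 on day 3 and MT-ND3 had 49788. Their log2 fold changes were -0.04 and -1.23. Per gene, the median log2 fold change of the mitochondrial members was -0.37 for complex I and also -0.37 for complex V.

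Complex I takes electrons from NADH. Of its 37 nuclear members, 30 were lower on day 5 and 2 were higher, with a median log2 fold change of -0.82. The accessory subunits, which surround the catalytic core, and the core subunits gave different counts. Of 30 accessory subunits, 27 were lower and none higher, with a median of -0.93, whereas of 7 nuclear core subunits 3 were lower and 2 higher, with a median of -0.25. No accessory subunit was higher at an unadjusted p under 0.05 in limma, nor by edgeR or DESeq2. This split was described and not tested.

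The accessory subunit NDUFB3 had normalised values of 3172, 3040 and 3750 on day 3 and 1166, 1268 and 1217 on day 5. All day 5 libraries were below all day 3 libraries, by a log2 fold change of -1.44 (SE 0.10, limma adjusted p = 0.000238). NDUFS5 and NDUFA1, also accessory subunits, fell by 1.44 (SE 0.13) and 1.42 (SE 0.12) on the log2 scale. They were the other members among the 3 largest falls of complex I.

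NDUFV1, the core subunit that binds NADH and the flavin cofactor, went the other way. Its values were 1975, 2107 and 2245 on day 3 and 3274, 2913 and 3192 on day 5, with no overlap (log2 fold change 0.57, SE 0.09, limma adjusted p = 0.00264). With a correction for GC content and transcript length its log2 fold change was 0.22 (limma adjusted p = 0.0427).

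Complex III passes electrons from ubiquinol to cytochrome c. Of its 9 nuclear members, 8 fell and 1 rose. UQCRQ, a small subunit, had values of 4717, 4395 and 6425 on day 3 and 1804, 1836 and 1687 on day 5. The lowest day 3 library was above the highest day 5 library by a wide margin, and the log2 fold change was -1.52 (SE 0.16, limma adjusted p = 0.000551). UQCR10, another small subunit, fell by 1.50 (SE 0.15) on the log2 scale. UQCRH, the hinge protein that contacts cytochrome c1, fell by 1.23 (SE 0.11), and its paralog UQCRHL by 1.17 (SE 0.09). The coding sequences of these paralogs are nearly identical, so reads may be split between them and the value of UQCRHL is uncertain.

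UQCRC1, one of the large core proteins on the matrix side, was the complex III member that rose. Its values were 3797, 4087 and 5149 on day 3 and 5792, 5943 and 6165 on day 5. The groups did not overlap (log2 fold change 0.47, SE 0.13, limma adjusted p = 0.0223), but the highest day 3 value was that of replicate 3. Leaving out day 3 replicates 1 or 2 gave adjusted p = 0.0562 and 0.072, and leaving out day 5 replicates 1, 2 or 3 gave 0.0525, 0.0607 and 0.0674. With the correction for GC content and length the call was lost as well (log2 fold change 0.21, limma adjusted p = 0.12).

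Complex IV, cytochrome c oxidase, reduces oxygen. Of its 17 nuclear members 14 were tested, of which 11 fell and 1 rose. COX7B, a small subunit, had values of 6445, 6171 and 7975 on day 3 and 2479, 2472 and 2488 on day 5. The day 5 libraries were almost identical to each other and far below day 3 (log2 fold change -1.46, SE 0.11, limma adjusted p = 0.000287). NDUFA4, named as a complex I protein but found in complex IV, fell by 1.41 (SE 0.14) on the log2 scale, and COX7C, another small subunit, by 1.35 (SE 0.14). COX5A, chosen after its values were seen because it departed from its complex, had values of 2519, 2661 and 3574 on day 3 and 2784, 2740 and 2872 on day 5. The groups overlapped and no change was called (log2 fold change -0.04, SE 0.15, limma adjusted p = 0.816).

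ATP synthase joins a catalytic head and a central stalk to a membrane ring. Of its 18 nuclear members, 14 fell, 1 rose and 3 were not called. ATP5F1E, the small epsilon subunit of the central stalk, had values of 7617, 7142 and 9372 on day 3 and 2784, 2608 and 2762 on day 5. It had the largest fall of all members, with a log2 fold change of -1.56 (SE 0.12, limma adjusted p = 0.000274), and no overlap. ATP5MK and ATP5ME, small proteins of the membrane part, fell by 1.44 (SE 0.10) and 1.33 (SE 0.12) on the log2 scale.

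ATP5F1D encodes the delta subunit, which lies next to epsilon in the central stalk. Its values were 1417, 1550 and 1927 on day 3 and 2261, 2050 and 2123 on day 5, all of them above day 3 (log2 fold change 0.41, SE 0.13, limma adjusted p = 0.0391). The call did not hold without day 3 replicate 1 or 2 (adjusted p = 0.0942 and 0.109) or without day 5 replicate 1, 2 or 3 (adjusted p = 0.111, 0.0739 and 0.0881). With a correction for GC content and transcript length the log2 fold change was 0.00. The alpha and beta subunits of the catalytic head were chosen after their values were seen. ATP5F1A, alpha, fell by 0.46 (SE 0.12) on the log2 scale, and ATP5F1B, beta, was not called (log2 fold change -0.14, SE 0.12, limma adjusted p = 0.34).

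**Figure D3:**
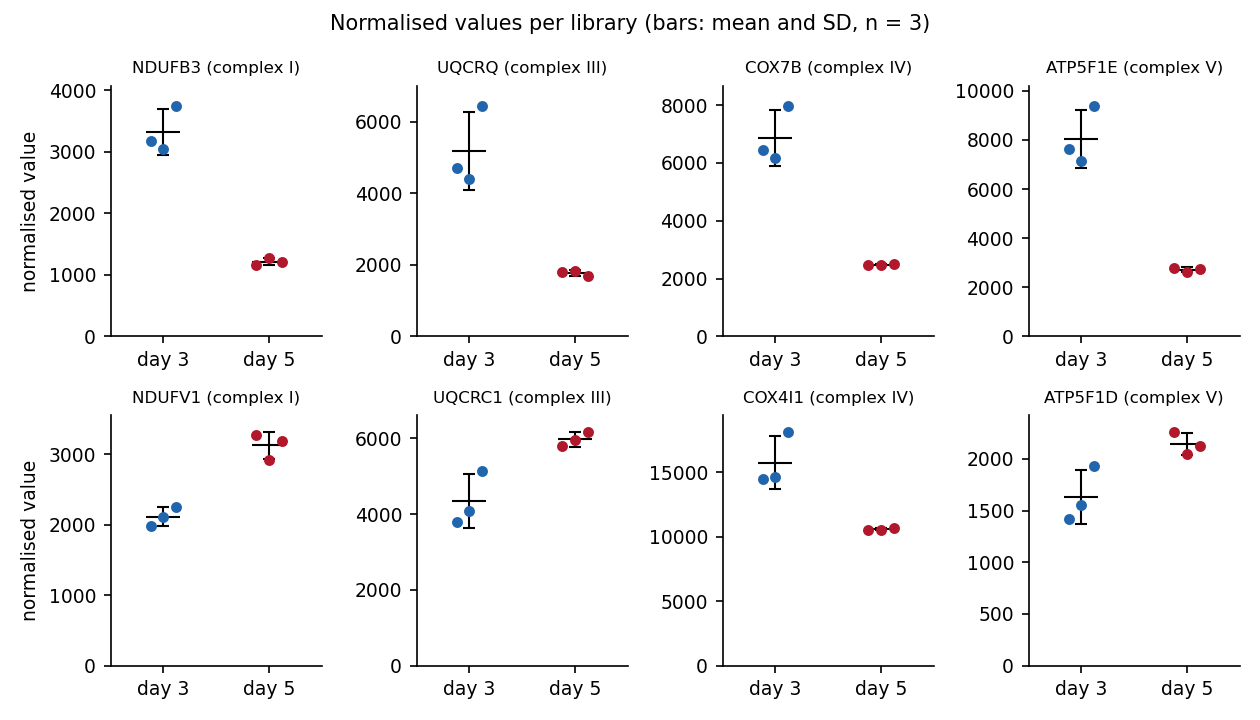
Normalised values of 8 nuclear subunits in each library, with the largest fall of each complex in the upper row and a subunit of the same complex that rose or fell less in the lower row. Points are libraries and bars give mean and SD (n = 3 per day); every axis starts at 0, and in each panel the days do not overlap.

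Several subunits exist as isoforms that differ by tissue or oxygen supply. Of 18 such members that the table lists, 15 were tested, with 12 lower, 1 higher and 2 not called. Of those tested, 80.0% were lower and 6.67% higher, against 27.6% and 29.3% of all genes tested. COX4I1, the common isoform of subunit 4, had values of 14468, 14674 and 18135 on day 3 and 10518, 10569 and 10720 on day 5, and fell by 0.56 (SE 0.11, limma adjusted p = 0.00587) on the log2 scale. Its hypoxia isoform COX4I2 stayed at or below 3.25 in every library and was not tested. COX7A1, the muscle isoform of subunit 7A, and COX8C, the testis isoform of subunit 8, were not tested either, with highest values of 4.14 and 5.67. These 3 were the nuclear members that failed the filter.

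The common isoforms COX6A1, COX6B1, COX7A2 and COX8A fell by 0.95, 1.07, 1.21 and 0.95 on the log2 scale. COX7A2L, which joins complexes III and IV into supercomplexes, fell by 0.79 (SE 0.08). COX6B2, the testis isoform of subunit 6B, had values of 21.1, 23.5 and 18.4 on day 3 and 32.5, 30.0 and 33.1 on day 5. The groups did not overlap and limma called it higher (log2 fold change 0.59, SE 0.11, adjusted p = 0.00504), but at this low level edgeR and DESeq2 on the recovered reads did not (adjusted p = 0.0904 and 0.233), nor did limma with the correction for GC content and length (0.37, adjusted p = 0.0652).

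NDUFA4L2, a hypoxia-induced paralog of NDUFA4, had values of 14.0, 17.9 and 35.4 on day 3 and 23.9, 24.7 and 18.6 on day 5. The groups overlapped and no change was called (log2 fold change 0.09, SE 0.33, limma adjusted p = 0.833). The 3 genes of the c subunit encode the same mature ring protein. ATP5MC1 and ATP5MC3 fell by 1.04 (SE 0.10) and 1.14 (SE 0.10) on the log2 scale, while ATP5MC2 lay just outside the threshold (log2 fold change -0.33, SE 0.12, limma adjusted p = 0.0525). It was called lower by edgeR and DESeq2 (adjusted p = 0.00109 and 0.00229) and by limma with library totals (adjusted p = 0.0406).

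Levels of different genes were set side by side as RPKM, reads scaled to the length of the canonical transcript and to the gene reads of the library. On this scale COX4I1 had the highest mean of the nuclear members on day 3, at 572 ± 33 RPKM (SD, n = 3). COX7C followed closely with 563 ± 56, then UQCRH with 530 and COX7A2 with 476. The order depends on the canonical lengths used. UQCRB, at 8459 bases, had 38.4 RPKM on day 3. Its mean normalised value of 11707 was above the 10269 of UQCRH, which has 537 bases. On day 5 ATP5F1B was the highest at 440 RPKM, then COX4I1 at 405, and COX7C stood at 230. Mitochondrial mRNAs stood far above them, from 1090 RPKM for MT-ND6 to 15940 RPKM for MT-CO3 on day 3. Among tested nuclear members, COX6B2, ATP5MGL and NDUFA4L2 had the lowest levels, each below 1 RPKM on both days.

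Mitochondrial mRNAs of one strand come from the same long transcripts, yet they did not change alike. MT-ND3 (complex I, chromosome M, 10059 to 10404, forward strand, hg38) had values of 46833, 50542 and 51990 on day 3 and 19989, 22126 and 21468 on day 5. It was the 1 mitochondrial mRNA that fell at least 2-fold, with no overlap (log2 fold change -1.23, SE 0.08, limma adjusted p = 0.000225). MT-ND2 had values of 103316, 118021 and 132577 on day 3 and 58735, 60534 and 61445 on day 5 (log2 fold change -0.96, SE 0.11, limma adjusted p = 0.00077). MT-CYB, the complex III cytochrome, fell by 0.82 (SE 0.10) on the log2 scale.

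The next genes along the forward strand after MT-ND3 differed from it. MT-ND4L had values of 22389, 25667 and 21484 on day 3 and 19852, 22771 and 23565 on day 5, and MT-ND4 had values of 371589, 408885 and 450721 on day 3 and 363751, 430383 and 406179 on day 5. For both the days overlapped and no change was called (log2 fold changes -0.07, SE 0.11, and -0.04, SE 0.11, with limma adjusted p = 0.61 and 0.798). MT-ND5 (12337 to 14148) had values of 134365, 141964 and 153084 on day 3 and 170577, 200518 and 177972 on day 5.

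MT-ND5 was thus higher in all day 5 libraries than in any day 3 library (log2 fold change 0.35, SE 0.10, limma adjusted p = 0.0236). The call was lost without day 3 replicate 1 or 2 (adjusted p = 0.0636 and 0.0701) and without day 5 replicate 2 or 3 (adjusted p = 0.0776 and 0.0543). MT-ND6, the mRNA of the reverse strand, had values of 19510, 27696 and 13710 on day 3 and 15508, 13746 and 15999 on day 5. The day 3 libraries were widely spread and no change was called (log2 fold change -0.37, SE 0.25, limma adjusted p = 0.254), although leaving out day 3 replicate 3 gave a call (-0.63, adjusted p = 0.0342), as did edgeR (adjusted p = 0.031) but not DESeq2 (adjusted p = 0.25).

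The remaining mitochondrial mRNAs lay between. MT-ND1, MT-CO2, MT-CO3 and MT-ATP6 fell by 0.48 (SE 0.10), 0.50 (SE 0.11), 0.53 (SE 0.12) and 0.47 (SE 0.11) on the log2 scale. MT-CO1, the catalytic subunit of complex IV, had values of 488034, 480383 and 610822 on day 3 and 415279, 459808 and 458868 on day 5. These did not overlap, but limma did not call the change (log2 fold change -0.24, SE 0.12, adjusted p = 0.141), whereas edgeR and DESeq2 did (adjusted p = 0.0413 and 0.0274). MT-ATP8 was not called by limma either (log2 fold change -0.27, SE 0.14, adjusted p = 0.15) but was by edgeR and DESeq2 (adjusted p = 0.0201 and 0.0251).

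**Figure D4:**
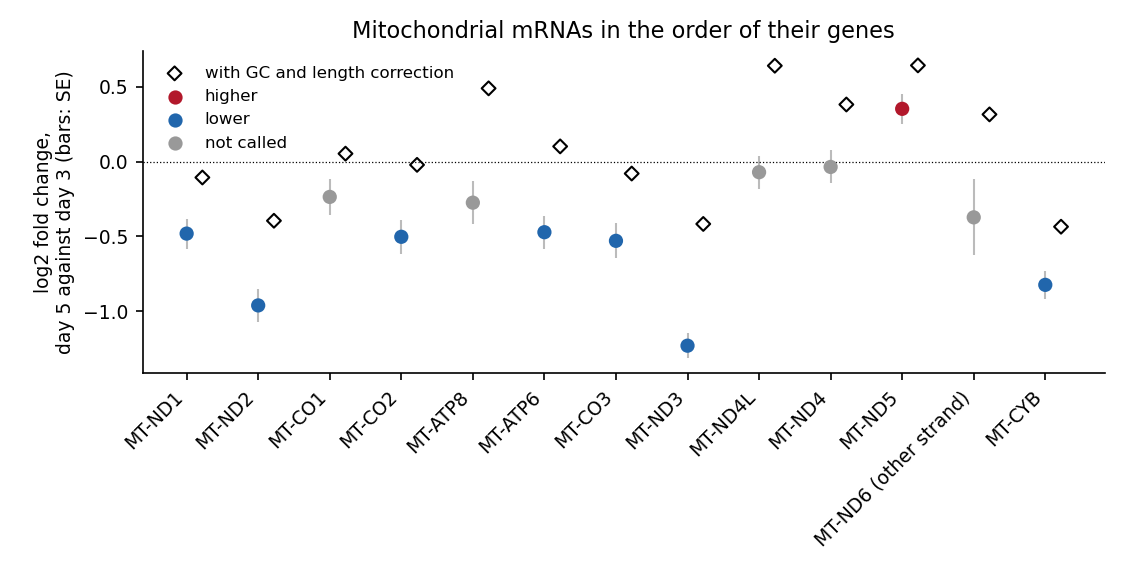
Log2 fold change of day 5 against day 3 for the 13 mitochondrial mRNAs in the order of their genes. Filled points are limma estimates coloured by call, bars are standard errors, and open diamonds are the estimates after correction for GC content and transcript length; MT-ND3 is lowest at -1.23 and MT-ND5 highest at 0.35 before correction.

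Some neighbouring mitochondrial genes share bases, so their reads cannot be fully told apart. MT-ATP8 and MT-ATP6 lie on 1 mRNA and overlap by 46 bases (hg38 chrM:8527-8572, forward strand), and MT-ND4L and MT-ND4 overlap by 7 bases. The MT-ATP8 and MT-ATP6 overlap is shown because both reading frames run through it, with the start codon of MT-ATP6 in capitals.
MT-ATP8 and MT-ATP6 overlap: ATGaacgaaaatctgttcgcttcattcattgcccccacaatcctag
Pseudogene copies of mitochondrial DNA in the nucleus can take up reads as well. Reads on 182 such copies were 0.147% ± 0.014 of gene reads on day 3 and 0.125% ± 0.005 on day 5 (SD, n = 3 each).

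Fold changes varied over all genes with GC content and transcript length, and a correction for both, fitted on all genes, moved the mitochondrial values. Across 19288 genes with both properties the log2 fold change had a Spearman correlation of 0.437 with GC content and 0.300 with length, and across the 78 nuclear members 0.497 and 0.249. These are correlations across genes, which share libraries and are not independent replicates. After the correction, MT-ND2, MT-ND3 and MT-CYB remained lower (log2 fold changes -0.40, -0.42 and -0.44, limma adjusted p = 0.0177, 0.00993 and 0.00551), and MT-ND5 remained higher (0.64, adjusted p = 0.00244). MT-ND1, MT-CO2, MT-CO3 and MT-ATP6 lost their calls, MT-ATP8, MT-ND4 and MT-ND4L became higher (0.49, 0.38 and 0.64), and the median over the 13 was 0.05.

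The nuclear falls were smaller but mostly kept after the correction, with 63 of 78 called lower and a median log2 fold change of -0.68. Of the 5 nuclear rises, those of UQCRC1, COX6B2 and ATP5F1D lost their calls. NDUFV2, a complex I core subunit, and ATP5MGL, a paralog of the ATP synthase subunit g gene, were not called before the correction and were called higher after it (0.40 and 1.14, limma adjusted p = 0.0392 and 0.0309). In the uncorrected values the days overlapped for both. ATP5MGL had few reads, 10, 35 and 9 on day 3 and 23, 21 and 17 on day 5, so its estimate is uncertain. All 5 nuclear members that rose had transcripts of at least 50% GC. Of the 45 tested members below 50% GC, 40 were lower and none higher (none at an unadjusted p under 0.05, by edgeR or by DESeq2), with a median of -1.17, and of the 33 at or above it, 23 were lower and 5 higher, with a median of -0.59. Over all genes the medians were -0.24 below 50% GC and 0.37 at or above it. Nuclear members shorter than 1000 bases had a median of -1.04 (49 tested) and longer ones -0.82 (29 tested), against -0.36 and 0.13 over all genes. The part of GC content and length in the difference between the days was not tested beyond this correction.

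**Figure D5:**
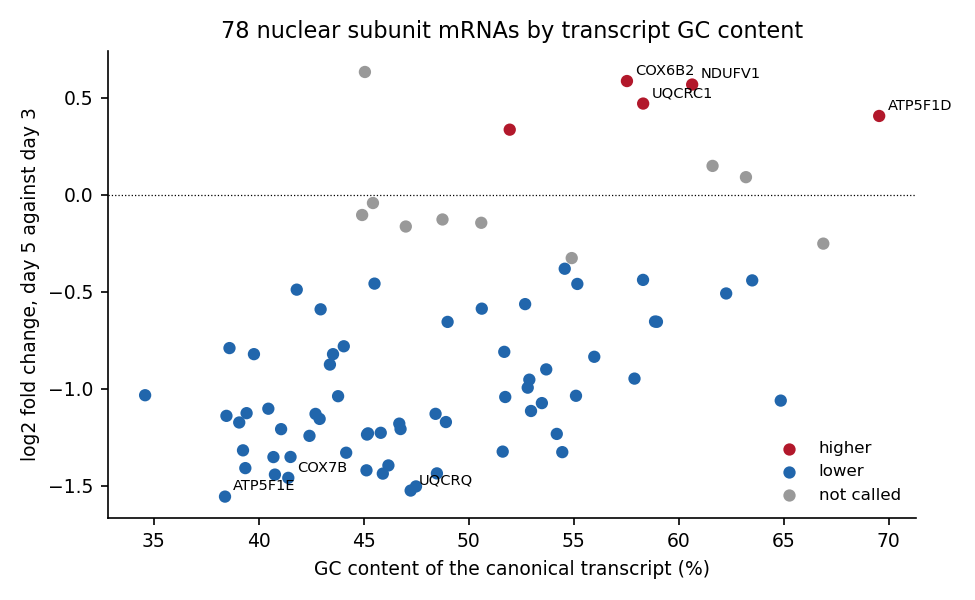
Log2 fold change of day 5 against day 3 for the 78 nuclear members tested, against the GC content of the canonical transcript in percent. Points are genes coloured by call; the 5 that rose lie at or above 50% GC, and the Spearman correlation across these genes is 0.497.

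Nuclear respiratory promoters are known for sites of NRF1, GABPA (an ETS factor) and YY1. RefSeq promoter windows on GRCh38.p14, each 300 bases long with 250 before the start and 50 after it, were matched by symbol for 64 of the 81 nuclear members. The motifs searched on both strands were ATGGCGGC for YY1, GCATGCGC for NRF1 and CCGGAAGT for ETS. A gene was counted if any of its windows held a match. YY1 letters were found for 17.2% of member genes and 3.67% of all 27305 genes with a window, NRF1 letters for 18.8% and 3.68%, and ETS letters for 17.2% and 4.95%. Any of these was found for 29 member genes (45.3%) and for 11.2% of all genes. The YY1 letters of NDUFS3, NDUFS4, NDUFS6, NDUFA9, NDUFA13, NDUFB11, UQCR10 and UQCRC1 begin 12 to 31 bases after the start. They lie on the strand of the gene and open with ATG, so they may hold the first codon. Those of NDUFA7 and NDUFS8 lie before the start, and those of NDUFS1 on the opposite strand.

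Members with and without the YY1, NRF1 or ETS letters were set side by side, with no test. The median log2 fold change was -0.95 for the 29 member genes with any of the motifs and -1.07 for the others. By motif, the medians with and without a match were -0.49 and -1.05 for YY1. They were -1.04 and -0.99 for NRF1 and likewise -1.04 and -0.99 for ETS. A match was held by 25 of the 53 lower members with a window and 1 of the 3 higher ones. The core of the hypoxia response element, ACGTG, which holds no other motif here, was found for 26.6% of member genes and 24.9% of all genes. Members with ACGTG had a median of -0.59 and those without it -1.05, also not tested. Such a match is a description of letters and not a bound site.

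Promoter windows of 4 members are shown, with NRF1, ETS and YY1 letters in capitals. COX5B carries both NRF1 and ETS letters, ATP5F1C a palindrome that holds the NRF1 letters on both strands, and UQCRQ and UQCRC1 are the complex III members with the largest fall and with a rise.
COX5B, chr2:97645812-97646111, forward strand: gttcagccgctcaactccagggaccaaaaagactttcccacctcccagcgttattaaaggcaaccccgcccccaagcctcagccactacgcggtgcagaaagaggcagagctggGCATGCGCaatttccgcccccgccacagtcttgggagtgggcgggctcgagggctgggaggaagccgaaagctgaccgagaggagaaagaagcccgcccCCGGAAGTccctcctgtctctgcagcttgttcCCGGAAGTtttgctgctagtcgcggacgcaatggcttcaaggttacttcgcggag
ATP5F1C, chr10:7787927-7788226, forward strand: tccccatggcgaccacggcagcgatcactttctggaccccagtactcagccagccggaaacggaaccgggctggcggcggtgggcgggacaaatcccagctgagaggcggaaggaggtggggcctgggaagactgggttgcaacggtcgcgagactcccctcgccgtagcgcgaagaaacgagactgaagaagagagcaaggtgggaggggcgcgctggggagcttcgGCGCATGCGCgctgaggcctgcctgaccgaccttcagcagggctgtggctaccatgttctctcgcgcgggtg
UQCRQ, chr5:132866392-132866691, forward strand: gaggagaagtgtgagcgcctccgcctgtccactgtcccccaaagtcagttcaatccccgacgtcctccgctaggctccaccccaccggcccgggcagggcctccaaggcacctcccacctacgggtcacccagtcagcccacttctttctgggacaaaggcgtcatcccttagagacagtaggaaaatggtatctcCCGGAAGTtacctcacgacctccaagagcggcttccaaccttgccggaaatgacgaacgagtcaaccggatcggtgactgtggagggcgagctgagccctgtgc
UQCRC1, chr3:48609597-48609896, reverse strand: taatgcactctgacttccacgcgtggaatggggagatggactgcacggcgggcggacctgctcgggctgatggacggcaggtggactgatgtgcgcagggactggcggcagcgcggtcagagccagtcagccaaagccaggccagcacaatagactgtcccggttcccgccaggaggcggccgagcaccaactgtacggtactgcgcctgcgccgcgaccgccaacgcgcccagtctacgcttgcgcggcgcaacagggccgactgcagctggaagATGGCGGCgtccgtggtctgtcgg
The ETS letters of UQCRQ begin 54 bases before the start, and the YY1 letters of UQCRC1 begin at base 27 after it and hold the first codon letters ATG. COX5B fell by 1.04 (SE 0.13) and ATP5F1C by 1.24 (SE 0.11) on the log2 scale. Both were chosen for their motifs after their values were seen.

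The other parts of the electron transport system were mixed. Of 17 genes of complex II, cytochrome c, coenzyme Q synthesis and the ATP synthase inhibitor, 9 were lower, 2 were higher and 6 were not called. The share called was 64.7%, against 56.9% of all genes tested, and the median log2 fold change was -0.58. CYCS, which encodes cytochrome c, had values of 13095, 13210 and 11348 on day 3 and 5026, 4447 and 5051 on day 5, and fell by 1.37 (SE 0.10, limma adjusted p = 0.000246). PDSS1 and COQ3, both of coenzyme Q synthesis, fell by 1.19 and 1.12.

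SDHA, the flavoprotein of complex II, rose. Its values were 2329, 2673 and 2899 on day 3 and 4467, 4147 and 4524 on day 5, with no overlap (log2 fold change 0.74, SE 0.11, limma adjusted p = 0.00176). COQ8A, a kinase-like protein of coenzyme Q synthesis, rose by 0.96 (SE 0.09) on the log2 scale. Of 49 assembly factors found in the table, which build the complexes without being part of them, 37 were lower and none was called higher by limma, with a median of -0.73. None was higher at an unadjusted p under 0.05, and edgeR and DESeq2 called 1 higher each. The share of assembly factors called lower was 75.5%, against 27.6% of all genes tested. TMEM126A and NDUFAF4, for complex I, fell by 1.79 (SE 0.13) and 1.63 (SE 0.09), and HIGD1A, a complex IV partner, by 1.51 (SE 0.08).

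Genes that express mitochondrial DNA were mixed. Of 34, 22 were lower and 4 higher, with a median log2 fold change of -0.56. As shares, 64.7% were lower and 11.8% higher, against 27.6% and 29.3% of all genes tested. SLIRP, which stabilises mitochondrial mRNAs, had values of 4569, 4279 and 6050 on day 3 and 1439, 1378 and 1426 on day 5 and fell by 1.79 (SE 0.14, limma adjusted p = 0.000292). TRMT10C, a part of mitochondrial RNase P, fell by 1.35 (SE 0.09), and FASTKD3, an mRNA-binding protein, by 1.18 (SE 0.09). The mitochondrial RNA polymerase POLRMT rose, with values of 1180, 1385 and 1674 on day 3 and 3564, 3151 and 3371 on day 5, no overlap and a log2 fold change of 1.26 (SE 0.14, limma adjusted p = 0.000764). POLG, the DNA polymerase, and TOP1MT, a topoisomerase, rose by 0.71 (SE 0.07) and 0.67 (SE 0.10). With GC and length correction POLRMT stood at 0.45 (adjusted p = 0.0129) and POLG was not called (0.02, adjusted p = 0.828).

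Mitochondrial ribosomal proteins translate the 13 mitochondrial mRNAs. Of 76 tested, 61 were lower and 1 was higher (MRPL10, log2 fold change 0.54, SE 0.13, limma adjusted p = 0.0151), with a median of -0.85. As shares, 80.3% were lower and 1.32% higher, against 27.6% and 29.3% of all genes tested. MRPS18C, MRPL47 and MRPL20 fell by 1.61 (SE 0.11), 1.59 (SE 0.11) and 1.47 (SE 0.11). Their share of gene reads went from 0.510% ± 0.019 to 0.306% ± 0.007 (SD, n = 3 each), a ratio of 0.600, close to that of the nuclear subunits.

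Regulators of respiratory genes did not share a direction, with 6 of 13 higher and 4 lower. These are 46.2% higher and 30.8% lower, against 29.3% and 27.6% of all genes tested. PDK1, which keeps pyruvate out of the citric acid cycle, had values of 1392, 1139 and 972 on day 3 and 6420, 6923 and 7205 on day 5, a log2 fold change of 2.57 (SE 0.14, limma adjusted p = 0.000178). EPAS1, a hypoxia-inducible factor, and LONP1, a mitochondrial protease, rose by 2.00 (SE 0.14) and 1.32 (SE 0.12). Like those of SDHA, COQ8A, TOP1MT and MRPL10 above, these rises are given without the correction for GC content and length. GABPB1, the partner of GABPA, HIF1A, and CHCHD2, a COX4I2 activator, fell by 0.67 (SE 0.08), 0.63 (SE 0.09) and 0.59 (SE 0.12). PPARGC1A, a coactivator of mitochondrial biogenesis, reached a value of 2.14 at most and was not tested.

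Of 22 tRNAs and rRNAs of mitochondrial DNA other than the mRNAs found in the table, 12 were tested, with 4 lower and 2 higher. That is 50.0% called, near the 56.9% over all genes. The rRNAs MT-RNR1 and MT-RNR2 fell by 0.60 (SE 0.20) and 0.58 (SE 0.14), but neither was called after the correction for GC content and length. Also, ribosomal RNA had been removed from these libraries and its value depends on that step. MT-TP, the proline tRNA on the reverse strand, had values of 725, 752 and 577 on day 3 and 1629, 1953 and 1862 on day 5, with no overlap (log2 fold change 1.41, SE 0.13, limma adjusted p = 0.000455). MT-TE, the glutamate tRNA on the same strand, rose by 1.00 (SE 0.22), and MT-TT, the threonine tRNA on the forward strand, fell by 1.05 (SE 0.10), a call lost under that correction (-0.37, limma adjusted p = 0.0719). Reads in a tRNA gene may come from uncut transcripts as well as from the tRNA, which these libraries do not tell apart.

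Of 52 nuclear pseudogene copies tested, 11 were lower and 3 higher, with a median log2 fold change of -0.26. The share called, 26.9%, was below the 56.9% over all genes. MTND2P28, a copy of MT-ND2, had values of 4130, 5099 and 5842 on day 3 and 2708, 2732 and 2725 on day 5, a fall of 0.87 (SE 0.14) beside 0.96 for MT-ND2. MTCYBP18 and MTCO2P11 fell by 1.02 (SE 0.14) and 0.88 (SE 0.27). MTND2P28 and MTCO2P11 lost their calls under the correction for GC content and length. The 3 that rose, MTND6P21, MTCYBP33 and MTND5P10, had values below 30 in every library. Copies and originals share sequence, and whether a read came from one or the other is uncertain.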

How the data were processed

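RNA of wild-type HCT116 cells on day 3 and day 5, with 3 libraries each, was analysed. The members and gene lists were chosen with earlier results of these data known. Per the methods, the authors used CLC Genomics Workbench for trimming, for mapping to hg38 genes with only reverse-strand matches accepted, and for TMM normalisation. FastQC 0.11.8 and MultiQC 1.7 are named in the submitters' processing notes. The authors deposited 1 normalised signal value per gene and library. The columns of that table are laid out as those of a DESeq2 results table, so which tool scaled the values is not settled. 100% of these values were whole multiples of 1 read within a tolerance of 0.01, so reads were recovered (27470978 to 56689369 per library). The table also holds the authors' own fold changes and p-values, which were not used. Depth limits weakly expressed genes, and counting error was covered only through the spread between libraries.

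Genes at 10 or more in 3 or more of the 6 libraries were tested by limma 3.58.1 in R 4.3.3 on log2(value + 1), with Benjamini-Hochberg adjustment and a threshold of 0.05. Log2 fold changes refer to that scale and understate those of low genes. A script using pandas 2.3.3 counted members, and figures were drawn with matplotlib 3.10.9. Mitochondrial genes, listed without their MT prefix, were named by gene ID. Positions, canonical transcript lengths and GC content came from GENCODE on GRCh38, and FASTKD4 was matched by its older symbol TBRG4.

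Genes were named by rule. These were all mitochondrial members, all isoforms, members that failed the filter, and in each complex and list the 3 largest rises and the 3 largest falls past the threshold. One gene that the rule names is not reported here. On simulated data with the depths of these libraries, 134 of 193 genes changed 2-fold were called (69.4%) among 19763 genes, with 5 false calls. The simulation changed few genes and gave every gene the same spread beyond counting error. In the data 56.9% of genes were called, so these rates need not hold for them. Alternatives were library totals, with and without mitochondrial genes, no filter, a replicate block, a pseudocount of 0.1, a lowess correction for GC content and length in 19288 genes, leaving out each library, and edgeR 4.0.16 and DESeq2 1.42.0 on the recovered reads.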

Additional observations from a re-analysis of the deposited data

How the results depend on the processing

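Between 56 and 65 nuclear members were called lower under every alternative run, and their median kept its sign, at -0.68 with GC and length correction, with or without the replicate block. Nuclear rises numbered 4 with the correction, 2 with no filter on low values, 2 with the block and the correction together, and 2 to 5 when 1 library was left out. With no filter, UQCRC1, ATP5F1D, MT-ND5, MT-ATP6 and MT-CO2 lost their calls and limma called 0 mitochondrial mRNAs higher (1 at an unadjusted p under 0.05, and 1 each by edgeR and DESeq2). Leaving out 1 library gave 0 to 1 mitochondrial rises. With GC and length correction, with or without the block, 4 mitochondrial mRNAs were higher and 3 lower, the median turned to 0.053, and log2 fold changes turned to 0.10 for MT-ATP6, 0.49 for MT-ATP8, 0.053 for MT-CO1, 0.38 for MT-ND4, 0.64 for MT-ND4L, 0.32 for MT-ND6 and -0.18 for NDUFA4L2. MT-ND4 was 0.031 with library totals and 0.013 with totals that leave out mitochondrial genes. Leaving out 1 library gave -0.11 to 0.034 for MT-ND4, -0.12 to 0.0047 for MT-ND4L and -0.18 to 0.46 for NDUFA4L2. Of the genes that changed sign, MT-ATP6 was the one limma had called. The cause of these changes was not tested. Same-numbered libraries were not paired, since their deviations from the day means had correlations of -0.011, 0.034 and 0.023. With the replicate block alone, 62 nuclear members were lower and 4 higher (ATP5F1D lost its call), and 10533 genes were called in all, against 11450 without it. COX6B2, NDUFA4L2 and ATP5MGL had values below those of most members, and the part of depth in their results was not tested.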
